A study of Mus musculus with 24 samples.

Results

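The cytokine genes Il4, Il5, Il13, Il3 and Csf2 were followed through 4 states of mouse CD4 T cells, with and without BAF180. They were taken as every probe that the deposited table names by one of these symbols, which gave 5 probes, 1 per gene, of 25697 probes for 17871 genes. All 5 passed the filter for dim probes (a detection p of at most 0.02 on 1 array or more), which kept 14246 probes for 10418 genes. RNA was measured on 24 Illumina BeadChip arrays, 3 for each of 8 groups. WT and BAF180-deficient cells (BAF180 is encoded by Pbrm1) came from mice 4 to 6 weeks old, whose strain the labels give as Balb/c, whereas the methods describe a mixed genetic background crossed to CD4-Cre. In the deficient mice Cre, driven by Cd4 regulatory sequence, removes a floxed Pbrm1 exon late in thymic development, and whether the WT mice carried Cre or floxed alleles is not given in the sources used here. Resting naive cells were CD4+CD62L+ cells of spleen and lymph nodes at 95% purity. Stimulated naive cells had spent 24 h on anti-CD3 (1 ug/ml) and anti-CD28 (2 ug/ml). Resting Th2 cells had been primed on the same antibodies with IL-4 (10 ng/ml) and anti-IFN-gamma (10 ug/ml) and then grown in IL-2 (100 U/ml), and stimulated Th2 cells were in addition treated for 1.5 h with PMA (50 ng/ml) and ionomycin (500 ng/ml). Exogenous IL-4 was thus part of both Th2 groups, and the naive and Th2 cells were stimulated by different agents for different times, so that cell type and stimulus cannot be told apart in a comparison of the stimulated groups.

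IL-4, IL-5 and IL-13 are the cytokines that define T helper 2 cells and drive IgE class switching, eosinophil growth and the mucus and airway responses of allergy. IL-3 and GM-CSF, the product of Csf2, are growth factors for myeloid cells that activated T helper cells of several kinds secrete. T cell receptor signals induce all of these genes through calcium and NFAT together with AP-1 and NF-kappaB proteins, and differentiation to the Th2 state, under GATA3 and STAT6, opens the chromatin of the shared Il4, Il13 and Il5 locus.

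Between 8047 and 10689 probes were detected per array, and replicate arrays of a group correlated between 0.950 and 0.989 across kept probes. Pbrm1, read from the brightest of its 3 kept probes, was lower in the BAF180-deficient cells of every state, with log2 differences reaching -1.83 in resting Th2 cells (limma adjusted p = 0.000876) and an adjusted p of 0.113 in resting naive cells. Whether that probe lies in the deleted exon was not determined, and the other kept Pbrm1 probes were not examined. All 8 T cell markers were detected on every array. Of 11 markers of mast cells, basophils and eosinophils, other cells that make IL-4, 5 were kept. Mcpt8, Fcer1a, Ms4a2, Epx and Tpsb2 were not detected on any array. Hdc was detected on all naive arrays, with means of 6.60 (WT) and 6.72 (deficient) at rest and 5.18 and 5.30 after stimulation. In Th2 cells Hdc was detected on 3 WT and 2 deficient resting arrays and on 3 and 1 stimulated arrays (means 4.58 to 4.92). Cpa3 was detected on 1 WT and 2 deficient resting naive, 2 and 3 resting Th2, and 2 and 0 stimulated Th2 arrays. Prss34, Prg2 and Gata2 were detected on some naive arrays only. The summed log2 level of the 5 kept markers was 7.49 to 8.13 in resting naive cells and 6.70 to 7.19 in the other states, and their part in the Il4 values was not tested. Myeloid markers (7 of 8 kept) summed to between 10.6 and 12.2 in resting naive cells and to between 7.14 and 7.47 in the other states, so that they moved opposite to the cytokine genes between resting and stimulated naive cells, and their part in those differences was not tested. B cell markers (8 of 8 kept) also had lower levels after stimulation of naive cells (3 called lower in WT and 4 in deficient cells) and in resting Th2 than in resting naive cells (5 and 3 called lower, median differences -1.43 and -1.25). Of 2 markers of CD8 T cells, Cd8a was not detected on any array and Cd8b1 was detected on all 24 (6.35 to 8.82). Cd8b1 read lower in deficient than in WT stimulated naive cells without overlap (-0.77), and by -0.93 and -0.68 in resting and stimulated Th2 cells with overlap, none of them called. The part of B cells or CD8 T cells in the cytokine values was not tested. Whether replicates of a letter share a day or a litter is not given in the labels, and p-values measure the spread between arrays.

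The 5 genes lie on chromosome 11 (GRCm38.p6) within 655 kb. Il4 (chr11:53612460-53618665, minus strand) is followed after 12.7 kb by Il13 (chr11:53631323-53634702, minus strand). Rad50, whose 3' part holds the Th2 locus control region, and 86.1 kb in all lie between Il13 and Il5 (chr11:53720794-53725103, plus strand). Csf2 (chr11:54247270-54249899, minus strand) follows 522 kb further on, and Il3 (chr11:54265085-54267279, minus strand) 15.2 kb after it. The 250 bases before each annotated start are printed from RefSeq, 5' to 3' along the gene, because all 5 genes were induced together. They cover chr11:53618666-53618915 for Il4, where the more upstream of its annotated starts was taken, chr11:53634703-53634952 for Il13, chr11:53720544-53720793 for Il5, chr11:54249900-54250149 for Csf2 and chr11:54267280-54267529 for Il3. Capitals mark matches, on either strand, to the NFAT core GGAAA, the AP-1 motif TGANTCA, the GATA core GATAA and the TATA motif TATAA.
Il4: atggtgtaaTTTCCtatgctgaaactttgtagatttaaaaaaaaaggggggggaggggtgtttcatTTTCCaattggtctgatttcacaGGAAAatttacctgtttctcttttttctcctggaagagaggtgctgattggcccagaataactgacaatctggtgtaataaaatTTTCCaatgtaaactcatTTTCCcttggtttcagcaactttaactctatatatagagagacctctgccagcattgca
Il13: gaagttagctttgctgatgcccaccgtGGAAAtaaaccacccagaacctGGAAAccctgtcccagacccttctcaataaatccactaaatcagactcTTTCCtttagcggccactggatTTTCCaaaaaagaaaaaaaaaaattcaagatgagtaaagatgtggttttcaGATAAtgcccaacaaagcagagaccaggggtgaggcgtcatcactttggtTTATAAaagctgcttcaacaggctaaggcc
Il5: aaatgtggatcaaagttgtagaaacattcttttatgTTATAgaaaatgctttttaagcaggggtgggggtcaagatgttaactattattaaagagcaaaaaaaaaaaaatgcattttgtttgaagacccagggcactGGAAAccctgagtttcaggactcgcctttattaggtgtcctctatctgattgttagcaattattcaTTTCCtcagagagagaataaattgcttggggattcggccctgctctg
Csf2: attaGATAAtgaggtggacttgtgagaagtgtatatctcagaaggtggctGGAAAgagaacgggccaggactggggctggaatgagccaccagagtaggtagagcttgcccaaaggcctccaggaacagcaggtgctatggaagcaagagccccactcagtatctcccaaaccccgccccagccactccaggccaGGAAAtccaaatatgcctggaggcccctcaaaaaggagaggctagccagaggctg
Il3: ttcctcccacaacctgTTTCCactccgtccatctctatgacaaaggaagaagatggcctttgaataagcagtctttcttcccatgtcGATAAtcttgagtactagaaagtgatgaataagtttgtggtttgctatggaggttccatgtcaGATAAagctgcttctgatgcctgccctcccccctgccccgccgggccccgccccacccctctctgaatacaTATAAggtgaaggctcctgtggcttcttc

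The NFAT core was found 5 times in the Il4 window, 4 times in that of Il13, 2 times each in those of Il5 and Csf2 and 1 time in that of Il3. Of 32851 promoter windows of this length in the reference, 55.6% hold at least 1 match and 1.59% hold 4 or more, as the windows of Il4 and Il13 do. No window of the 5 holds TGANTCA, which 6.75% of all windows do. GATAA was found 2 times for Il3 and 1 time each for Il13 and Csf2 (22.6% of all windows hold it). TATAA was found for Il13, where it overlaps its own reverse complement 29 and 30 bases before the start, for Il3 at 29 bases and for Il5 at 214 bases, and 22.8% of all windows hold it. These matches describe the letters only. The Il4 transcript was measured by a probe of 50 bases that the array annotation places in 2 blocks of 29 and 21 bases, so that it spans a splice junction, and it is printed, with no part marked, to show what the Il4 signal detects.
Il4 probe: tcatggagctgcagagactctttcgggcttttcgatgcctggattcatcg

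Il4, the autocrine growth and differentiation signal of Th2 cells, was the only member detected on all 24 arrays. All levels below are normalized log2 intensities of 1 probe and are compared within that probe, in the order of replicates A, B and C. In resting naive cells Il4 read 6.95, 7.11 and 6.42 in WT and 6.95, 6.64 and 6.24 in BAF180-deficient cells. These 6 arrays were the lowest of the 24 for this gene. RNA of whole cultures was measured, so that more cells making a transcript and more transcript per cell cannot be told apart. Stimulated naive cells read 10.11, 9.12 and 9.25 (WT) and 10.85, 9.70 and 8.41 (deficient), and resting Th2 cells read 10.04, 9.59 and 8.22 (WT) and 10.33, 10.29 and 9.09 (deficient). The ranges of these 4 groups overlapped, so that resting Th2 cells, which had received no further stimulus, and naive cells stimulated for 24 h cannot be ordered for Il4. Replicate A was the highest of its group in all 4 groups and C the lowest in 3 of them, WT stimulated naive cells being the exception. In stimulated Th2 cells the gene read 14.04, 13.99 and 13.93 (WT) and 14.04, 14.11 and 14.18 (deficient), above every other array. There Il4 ranked between 5 and 9 among all 25697 probes of its array, in a part of the scale where quantile normalization sets the value almost by rank alone.

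Il5, the growth factor of eosinophils, was not detected on any of the 6 resting naive arrays (4.13 to 4.23). It read 6.22, 5.29 and 5.36 in WT and 6.58, 6.65 and 5.42 in BAF180-deficient stimulated naive cells, each detected. In resting Th2 cells it read 4.79, 4.35 and 4.16 (WT) and 4.66, 4.42 and 4.51 (deficient), with replicate A alone detected in each genotype. Resting Th2 cells thus stood below stimulated naive cells with no overlap, and stimulated Th2 cells, at 8.05, 8.48 and 8.27 (WT) and 8.84, 8.06 and 8.29 (deficient), above all others. Il13, the cytokine of mucus and airway responses, had the same order of states. It was not detected in resting naive cells (4.18 to 4.82), and read 6.40, 5.73 and 6.04 (WT) and 6.67, 6.22 and 5.48 (deficient) in stimulated naive cells. Resting Th2 cells read 4.99, 4.77 and 4.35 (WT, 2 of 3 detected) and 4.87, 4.74 and 4.66 (deficient, 3 of 3 detected), which overlapped with the undetected values of WT resting naive cells. Stimulated Th2 cells read 8.03, 7.88 and 8.35 (WT) and 8.49, 7.59 and 7.89 (deficient).

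Il3, a growth factor for mast cells, basophils and early myeloid cells, was not detected on any of the 12 resting arrays, naive (4.17 to 4.25) or Th2 (4.21 to 4.33). Stimulated naive cells read 8.59, 7.25 and 7.24 in WT and 9.30, 7.98 and 6.86 in BAF180-deficient cells. Stimulated Th2 cells read 13.53, 12.89 and 12.99 (WT) and 12.78, 12.82 and 11.83 (deficient), and here the genotypes did not overlap. From below detection at rest, Il3 reached ranks 18 to 99 of 25697 probes on these 6 arrays. Csf2, which encodes GM-CSF, a growth and activation factor for granulocytes and macrophages, was also undetected in resting naive cells (4.21 to 4.29). It read 6.40, 5.58 and 5.49 (WT) and 5.76, 5.66 and 5.27 (deficient) in stimulated naive cells. In resting Th2 cells it read 4.64, 4.61 and 4.29 (WT) and 4.39, 4.65 and 4.21 (deficient), with 1 of 3 arrays of each genotype detected. Stimulated Th2 cells read 10.87, 10.82 and 10.94 (WT) and 10.60, 10.74 and 9.89 (deficient), and again every deficient array was below every WT array.

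**Figure D1:**
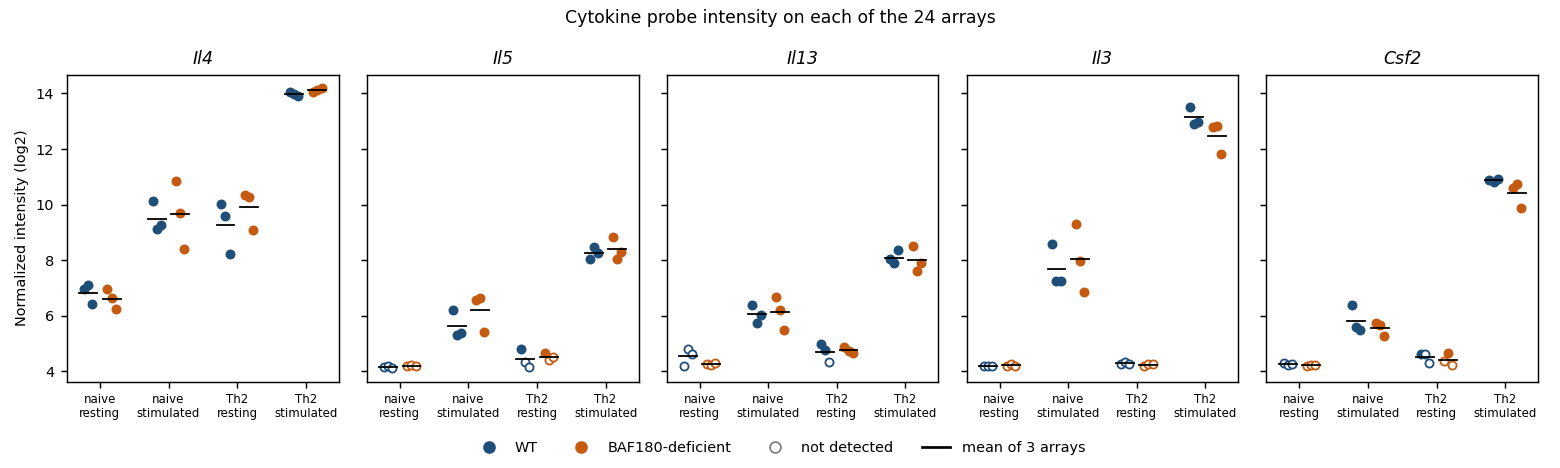
Normalized log2 intensity of each cytokine probe on each of the 24 arrays, by cell state and genotype. Points are single arrays (open where the detection p exceeded 0.02) and bars are means of 3; every probe was highest in stimulated Th2 cells, and only Il4 was detected on every resting array.

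Stimulation raised all 5 genes in naive and in Th2 cells of both genotypes. A gene was called by the thresholds of the study's 4 criteria, here set on limma p-values of quantile-normalized levels. The study set them on Z-score-normalized levels with its own p and false detection rate. They ask for a difference over 1.5 times the SD of all probes' differences (the Z-ratio), with p under 0.05 before and 0.3 after adjustment. The last of them asks for a mean signal over 0. The last was not applied as a filter, because the background correction used gives only values over 0, so that calls rested on the others. In naive WT cells 5 of 5 were called higher, against 5.99% of all probes, and in naive BAF180-deficient cells 5 of 5, against 6.05%. The log2 difference (± SE) in WT cells was 3.50 ± 0.42 for Il3, 2.67 ± 0.48 for Il4, 1.56 ± 0.22 for Csf2, 1.52 ± 0.26 for Il13 and 1.47 ± 0.28 for Il5, with limma adjusted p-values of at most 0.000189. In deficient cells it was 3.84 ± 0.42 for Il3, 3.05 ± 0.48 for Il4, 2.02 ± 0.28 for Il5, 1.86 ± 0.26 for Il13 and 1.35 ± 0.22 for Csf2 (adjusted p at most 3.48e-05). Resting and stimulated arrays did not overlap for any of the 5, with the stimulated ones higher, as held for 26.3% of all probes in WT and 26% in deficient cells. Since 4 of the genes were undetected at rest, their rise has only a lower bound, taken from the weakest detected signal of each resting array on the background-corrected scale (offset 16). Il3 rose at least 7.21-fold (WT) and 9.53-fold (deficient), and Il13 at least 2.32-fold and 2.51-fold. Il5 rose at least 1.72-fold and 2.68-fold, and Csf2 at least 1.98-fold and 1.70-fold. Without background correction the fitted folds (WT and deficient) were 6.17 and 7.64 for Il3 and 2.02 and 2.34 for Il13. For Il5 they were 2.13 and 2.64 and for Csf2 2.01 and 1.85, so the bounds hold on the corrected scale only. The Z-ratio criterion equalled a log2 difference of 1.37 in WT and 1.35 in deficient naive cells, close to the differences of Il5, Il13 and Csf2. Under 4 other settings, or without WT stimulated naive replicate A, those 3 were no longer called in WT naive cells, leaving 2 of 5, while their adjusted p stayed at or below 0.00584. Csf2 in deficient naive cells, at a Z-ratio of 1.50, also lost its call under 4 settings and when any one of 4 arrays was left out (log2 differences from 0.65 to 1.35, adjusted p at most 0.00589).

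In Th2 cells 1.5 h of PMA and ionomycin moved the same genes further up the scale. In WT Th2 cells 5 of 5 were called higher, against 4.97% of all probes, and in BAF180-deficient Th2 cells 5 of 5, against 4.84%. Il3 had the largest log2 difference of all 14246 probes in both genotypes, 8.85 ± 0.42 in WT and 8.23 ± 0.42 in deficient cells, and since it was undetected at rest these stand for at least 373-fold and at least 239.6-fold on the background-corrected scale. Folds of dim levels depend on that correction, and without it the fitted differences of Il3 were 217.7-fold and 142.3-fold. Csf2 came 7th in both, with 6.36 ± 0.22 and 6.00 ± 0.22. Il4, already detected at rest, rose by 4.70 ± 0.48 (26.1-fold) in WT and 4.21 ± 0.48 (18.5-fold) in deficient cells. Il5 rose by 3.84 ± 0.28 and 3.87 ± 0.28, and Il13 by 3.39 ± 0.26 and 3.24 ± 0.26. Without background correction the log2 differences in WT and deficient cells were 5.36 and 4.98 for Csf2, 4.64 and 4.17 for Il4, 2.95 and 2.95 for Il5, and 2.58 and 2.45 for Il13. Limma adjusted p-values were at most 2.57e-07 in WT and 1.45e-06 in deficient cells, and the stimulated arrays were above the resting ones without overlap for all 5 genes (19.5% of all probes in WT and 21% in deficient cells). The median log2 difference of the 5 genes was 4.70 in WT and 4.21 in deficient cells, beside -0.0019 and -0.0043 over all probes.

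Between the cell types at rest, Il4 alone was called, 1 of 5 in each genotype, against 4.79% of all probes called higher in WT and 4.71% in BAF180-deficient cells. Il4 was higher in resting Th2 than in resting naive cells by 2.46 ± 0.48 in WT (5.49-fold, limma adjusted p = 0.000473) and 3.30 ± 0.48 in deficient cells (9.82-fold, adjusted p = 2.11e-05), with no overlap (Th2 arrays were higher without overlap for 24.1% and 27.9% of all probes). The differences of Il5, Il13 and Csf2, each undetected in resting naive cells, lay between 0.17 (Il13, WT) and 0.49 (Il13, deficient) and none was called, and Il3 was detected in neither state. Th2 arrays were higher without overlap for Csf2 in WT cells and for Il5 and Il13 in deficient cells, and arrays overlapped for Il5 and Il13 in WT and for Csf2 in deficient cells. The weakest detected signal was higher on the resting naive arrays (4.67 to 4.99) than on the resting Th2 arrays (4.54 to 4.67), so that detection in Th2 cells alone does not show a higher level. Between the stimulated groups all 5 were higher in Th2 cells, 5 of 5 called against 5.22% of probes in WT and 5 of 5 against 5.41% in deficient cells. The log2 differences in WT were 5.44 ± 0.42 for Il3, 5.05 ± 0.22 for Csf2, 4.49 ± 0.48 for Il4, 2.64 ± 0.28 for Il5 and 2.03 ± 0.26 for Il13. In deficient cells they were 4.85 ± 0.22 for Csf2, 4.46 ± 0.48 for Il4, 4.43 ± 0.42 for Il3, 2.18 ± 0.28 for Il5 and 1.87 ± 0.26 for Il13. Adjusted p-values were at most 1.07e-05 in WT and 3.28e-05 in deficient cells.

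**Figure D2:**
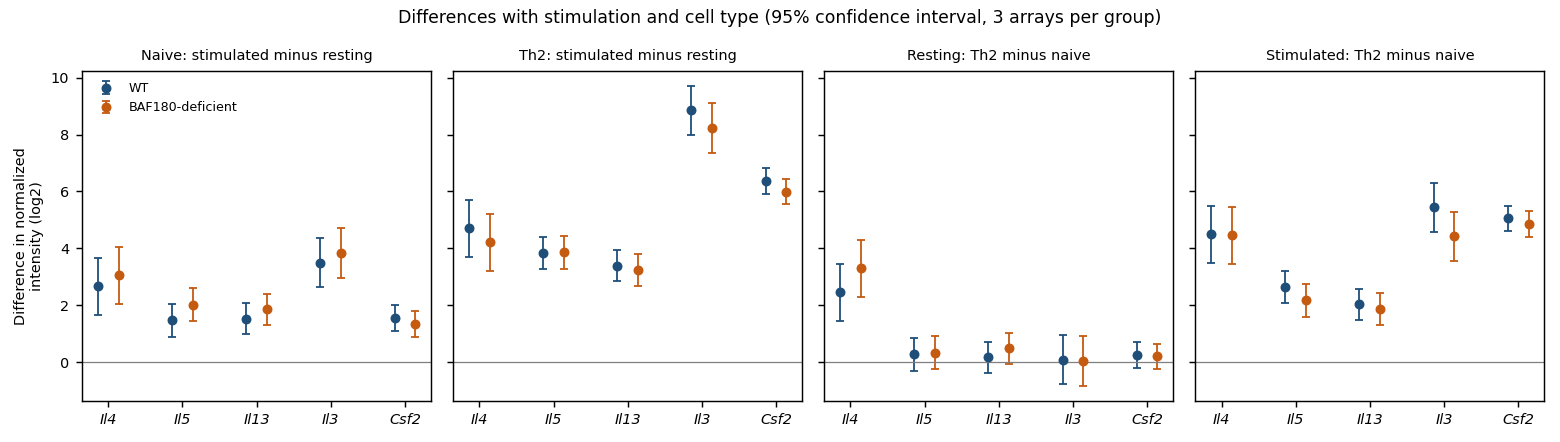
Log2 differences in normalized intensity with stimulation (left panels) and between Th2 and naive cells (right panels) for each gene, in WT and BAF180-deficient cells, with 95% confidence intervals from limma (3 arrays per group). At rest Il4 alone stands away from 0, at 2.46 (WT) and 3.30 (deficient), whereas all 5 genes do so after stimulation.

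BAF180-deficient and WT cells were compared within each state. None of the 5 genes was called in any of the 4 states, by limma or under any alternative tried. All probes were called, in either direction, at 0.653% in resting naive, 0.0772% in stimulated naive, 0.0842% in resting Th2 and 0.0913% in stimulated Th2 cells. The paper, with its own normalization and statistics, counted many more genes that changed without BAF180 in these cells. With the replicate letter as a block, 0.154% of all probes were called in stimulated naive and 0.14% in stimulated Th2 cells, and again 0 of the 5 genes. An unadjusted p below 0.05 was found for 967 (resting naive), 320 (stimulated naive), 492 (resting Th2) and 387 (stimulated Th2) of all 14246 probes. The counts of members were 0, 1, 0 and 1 in the same order. The 2 were Il5, higher in deficient stimulated naive cells by a log2 difference of 0.59 ± 0.28 (95% interval 0.02 to 1.17), with overlapping arrays and a range from 0.38 to 0.99 over single arrays left out (the ends without deficient replicates B and C), and Csf2, lower in deficient stimulated Th2 cells by -0.47 ± 0.22 (95% interval -0.92 to -0.02). For Il5 the deficient array was higher within each letter, by 0.36 (A), 1.36 (B) and 0.06 (C). All limma adjusted p-values of the members between genotypes were 0.997 or above. With 3 arrays per group and an SE pooled over all groups, a missing call does not show that a level was unchanged.

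In stimulated Th2 cells Il3 and Csf2 were the members whose genotypes did not overlap, with every deficient array lower. Non-overlap alone was found for 7.31% of all probes in this comparison. For Il3 the log2 difference was -0.66 ± 0.42 (95% interval -1.53 to 0.21), and the deposited intensities before normalization were 10305, 12162 and 15232 in WT and 7017, 6996 and 6231 in deficient cells. Deficient replicate C, the lowest, carried much of this value, which was -0.33 without it. For Csf2 the deposited intensities were 1553, 2612 and 4490 in WT and 1262, 1455 and 1627 in deficient cells. They overlapped before normalization, since deficient replicate C was above WT replicate A, and without deficient replicate C the normalized difference was -0.20. Il4, Il5 and Il13 differed in this state by 0.13 ± 0.48, 0.13 ± 0.28 and -0.10 ± 0.26, with overlapping arrays. For Il4 the overlap was a tie of the A arrays at 14.04, and the other deficient arrays were above every WT array. Before normalization the Il4 arrays overlapped (15581.7 to 21198.9 in WT and 16478.5 to 22683.2 in deficient cells). The SE of Il4 pools all groups, while its SDs here were 0.058 (WT) and 0.068 (deficient). The paper's RT-PCR found IL-4 slightly but significantly higher in stimulated deficient Th2 cells.

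In resting Th2 cells Il4 had the largest difference between genotypes of the 5, 0.62 ± 0.48 (95% interval -0.38 to 1.62), and the arrays overlapped. Within each replicate letter the deficient array was the higher one, by 0.30 (A), 0.69 (B) and 0.87 (C), and C was the lowest array in both genotypes. The difference was 0.09 without WT replicate C and 1.03 without deficient replicate C, 0.49 without both, and 1.17 under median scaling, and it was called under none of these. Il5, Il13 and Csf2 differed here by 0.10, 0.05 and -0.10. In stimulated naive cells Il4, Il13, Il3 and Csf2 differed by 0.16, 0.07, 0.36 and -0.26, with overlapping arrays, and the 95% intervals ran from -0.85 to 1.16 for Il4 and from -0.51 to 1.22 for Il3. In resting naive cells Il4, the only member detected, differed by -0.22 ± 0.48. Markers of memory and effector cells (10 of 10 kept) summed to 11.20 to 11.77 on the deficient and 10.95 to 11.02 on the WT arrays of that state, and their part in the Il4 value was not tested.

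**Figure D3:**
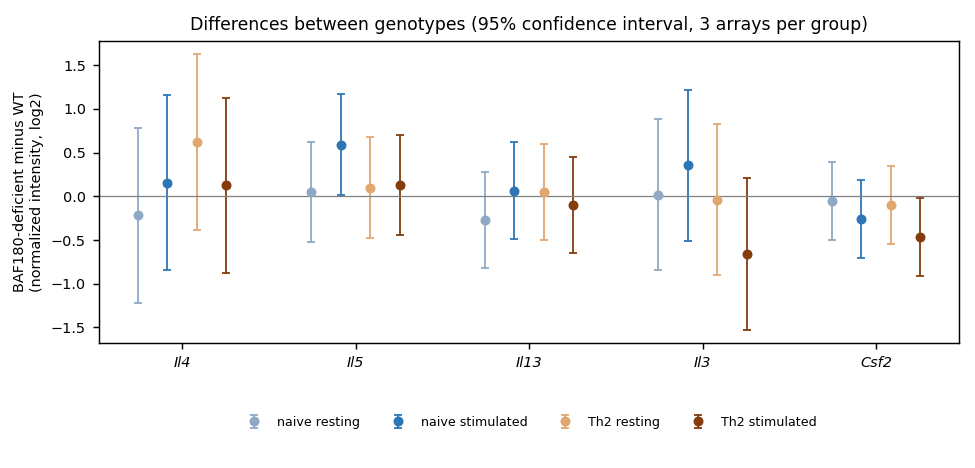
Log2 difference in normalized intensity, BAF180-deficient minus WT, for each gene in each of the 4 cell states, with 95% confidence intervals from limma (3 arrays per group). The intervals of Il5 in stimulated naive cells (0.02 to 1.17) and Csf2 in stimulated Th2 cells (-0.92 to -0.02) are the ones that leave out 0 before adjustment, and none met the criteria for a call.

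Whether the genotype difference itself depended on the state was fitted as an interaction, with 20 tests over the 5 genes (stimulated against resting in each cell type, and Th2 against naive in each activation state). None was called by limma and 0 had an unadjusted p below 0.05. Of all probes 0% (stimulation of Th2 cells), 0.00702% (stimulation of naive cells, and cell type at rest) and 0.014% (cell type after stimulation) were called. The interaction farthest from 0 relative to its SE was that of Il3 between stimulated Th2 and stimulated naive cells, an interaction of -1.02 ± 0.59 (95% interval -2.24 to 0.21, limma adjusted p = 1.00), which ran from -1.61 without deficient stimulated naive replicate C to -0.39 without deficient stimulated naive replicate A.

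Across the 24 arrays the genes followed each other, with Pearson's r from 0.894 between Il4 and Il3 to 0.987 between Il5 and Il13. These values mainly restate the order of the states, which all arrays share, and are given as a description. Among other genes, 1 probe each, the 3 most like Il4 were Adora2b, Srxn1 and Sec22b (r = 0.965, 0.965 and 0.960). For Il5 they were Cd70, Slc13a3 and Got1 (0.974, 0.970 and 0.966), and for Il13 Cd70, Got1 and Stx6 (0.974, 0.968 and 0.965). Il3 was most like Map2k3, Cd70 and Ccl1 (0.981, 0.978 and 0.974), and Csf2 most like Ccl1, Inhba and Zbtb32 (0.991, 0.985 and 0.980).

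None of the genes around the cytokines on the chromosome was called higher with stimulation. Of 13 neighbours 11 were kept, and in stimulated against resting Th2 cells 0 were called higher and 2 lower in each genotype. In WT cells these were Pdlim4, a cytoskeletal adaptor between Il5 and Csf2 (-2.78 ± 0.33), and Kif3a, a kinesin motor next to Il4 (-1.10 ± 0.16), and in BAF180-deficient cells Pdlim4 (-1.90 ± 0.33) and Septin8 (-1.09 ± 0.22). Rad50, the DNA repair gene between Il13 and Il5, had a difference of -0.85 ± 0.13 in WT and -0.98 ± 0.13 in deficient cells (limma adjusted p = 2.94e-05 and 6.14e-06), which was short of the Z-ratio criterion of 1.06 and 1.01. Irf1, the interferon regulatory factor beside Il5, had 0.60 ± 0.21 and 0.61 ± 0.21 and was not called. The median difference of the 11 neighbours was -0.46 in WT and -0.44 in deficient cells, against the medians over all probes given above. In stimulated Th2 against stimulated naive cells Rad50 and Pdlim4 were called lower in both genotypes, Rad50 by -0.88 and -0.91 and Pdlim4 by -1.32 and -1.90. At rest, where Il4 was the called cytokine, 2 neighbours were called higher and 2 lower in Th2 than in naive cells of each genotype. Kif3a was higher by 1.28 in WT and 1.21 in deficient cells, and Septin8, a septin gene on the other side of it from Il4, by 1.23 and 1.30. Irf1 was lower by -1.25 and -1.29 and Pdlim4 by -1.25 and -2.42. With stimulation of naive cells Pdlim4 was the 1 called neighbour, lower by -2.71 and -2.42. No neighbour was called between genotypes.

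**Figure D4:**
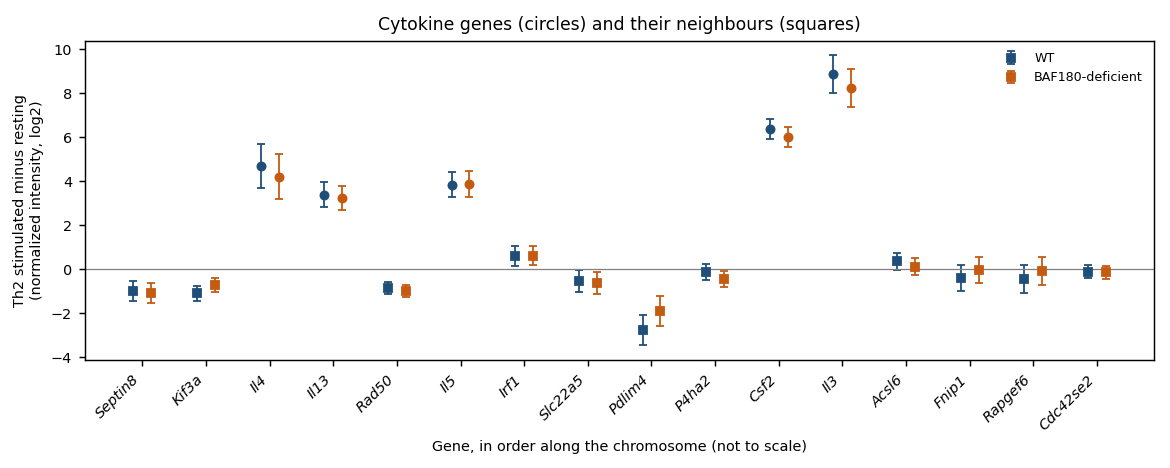
Log2 difference between stimulated and resting Th2 cells for the cytokine genes (circles) and the kept genes around them (squares), in chromosomal order and not to scale, in WT and BAF180-deficient cells with 95% confidence intervals from limma. The 5 cytokine genes lie between 3.24 and 8.85, and the highest neighbour, Irf1, lies at 0.61.

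Receptors for these cytokines were mostly not called. Of 9 receptor genes 7 were kept, and 0 were called with stimulation in either cell type or between genotypes in any state (median difference with stimulation 0.03 in WT Th2 cells, beside -0.0019 over all probes, and -0.52 in WT and -0.48 in deficient naive cells, beside 0.01 and 0.02, where 2 of 7 were above 0). Il4ra, the chain that binds IL-4, was detected on all 6 resting Th2 arrays (mean log2 intensity 5.26 in WT and 5.23 in deficient cells) and on none of the 12 naive arrays, though no difference was called. Il13ra1, the IL-13 receptor chain, was lower in resting Th2 than in resting naive cells (-1.42 in WT and -1.23 in deficient cells). Il2rg, the shared chain of the IL-4 and IL-2 receptors, and Il3ra, the specific chain of the IL-3 receptor, were higher in stimulated Th2 than in stimulated naive cells, Il2rg by 1.02 and 1.21 and Il3ra by 1.00 and 0.91.

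Of 30 signalling genes and regulators of the cytokine genes 26 were kept, and 0 were called between genotypes in any state. In WT Th2 cells 9 were called higher and 2 lower with stimulation, with a median difference of 0.35 beside -0.0019 over all probes. The largest rises were those of Tbx21, the T helper 1 factor T-bet (3.02), Stat5a, which transmits IL-2 signals (2.97), the kinase gene Jak2 (2.61) and Irf4 (2.15), and the falls were those of Ets1 (-1.51) and Socs3, a feedback inhibitor of cytokine signals (-1.07). Tbx21 is known to oppose the Th2 programme. Between the cell types at rest 3 were called higher in WT Th2 cells, Gata3 (1.61), Notch1 (1.50) and Irf4 (1.24), and 4 lower, Junb (-3.86), Bcl6 (-3.42), Zfpm1 (-1.82) and Cebpb (-1.82). In naive WT cells 5 rose with stimulation, with Irf4 (3.08), Gfi1 (2.34), Tbx21 (2.32) and Batf (1.76) the largest, and Junb (-3.30), Ets1 (-2.67) and Bcl6 (-2.21) fell. Gata3, the master factor of Th2 cells, was higher in Th2 than in naive WT cells by 1.61 ± 0.18 at rest, where Il4 alone of the cytokines was called, and by 2.07 after stimulation. The rise in stimulated Th2 cultures was not limited to type 2 genes. Of 4 Th1 markers, Tbx21 among them, 2 were called higher and 1 lower with stimulation in Th2 cells of each genotype. Of 4 kept Th17 markers 2 were called higher. Ifng, the Th1 cytokine, had means of 4.75 (WT) and 4.28 (deficient) in resting and 10.68 and 10.64 in stimulated Th2 cells.

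Other genes that Th2 cells are known to express followed the cytokines in part. Of 15 such genes 11 were kept, and 7 were called higher with stimulation in WT Th2 cells (median 2.28) and 6 in BAF180-deficient Th2 cells (median 1.13). The largest differences in WT cells were those of Ccl1, a chemokine that recruits CCR8-bearing cells (6.58), Il24 (4.66), Tnfsf11, the osteoclast factor RANKL (4.19), and Areg, an epidermal growth factor family member (4.14). In deficient cells they were 5.63, 3.20, 3.09 and 3.64 in that order. Between genotypes 1 of the 11 was called, Lif, a cytokine of the IL-6 family, which was higher in deficient resting Th2 cells by 1.07 ± 0.23 (limma adjusted p = 0.227). Lif was read from the brightest of its 3 kept probes, and the others were not examined. Il10, the inhibitory cytokine that Th2 cells also make, rose with stimulation by 3.95 ± 0.54 in WT and 3.11 ± 0.54 in deficient Th2 cells. Its arrays did not overlap between genotypes in either Th2 state, with differences of 1.67 ± 0.54 at rest and 0.84 ± 0.54 after stimulation, but neither was called (limma adjusted p = 0.941 and 1.00). Non-overlap was found for 7.31% of all probes in stimulated Th2 cells. The SE pools all groups, and the SDs of Il10 were 0.52 (WT) and 0.49 (deficient) in resting Th2 cells but 1.00 and 1.17 in resting naive cells. From these arrays, under its own normalization and call, the paper ranked IL-10 first among genes raised without BAF180 in both Th2 states. It also reported higher IL-10 mRNA and primary transcript by RT-PCR, and more IL-10-producing deficient Th2 cells by intracellular staining.

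Cytokine transcripts carry AU-rich elements through which RNA-binding proteins set their stability. Of 11 such factors 9 were kept. With stimulation Zfp36l1, which promotes the decay of these transcripts, was the 1 called gene in Th2 cells, higher by 1.76 in WT and 2.13 in deficient cells, whereas in naive WT cells it was lower by -1.41 and its relative Zfp36 by -3.81. None was called between genotypes, and 2 kept subunits of the SWI/SNF complexes of 4 listed were not called in any comparison.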

How the data were processed

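RNA of 24 cultures (8 groups of 3, with replicate letters A, B and C from the labels) was hybridised to Illumina MouseRef-8 arrays. The authors averaged bead intensities per probe in GenomeStudio (1.6.0 per the submitters' processing notes), and deposited non-normalized intensity values with a detection p-value for each probe, which the scanner software takes from each array's negative controls. Background was inferred from the detection p-values and corrected by normexp (offset 16) with limma 3.58.1 in R 4.3.3, followed by log2 transformation and quantile normalization. This sets the brightest probes largely by rank and compresses values near background. The filter for dim probes asked for a detection p no higher than 0.02 on any 1 of the 24 arrays. One model with 8 group means was fitted over all 14246 kept probes with eBayes, so that each SE pools the spread of all groups, and p-values were adjusted over all of them by the Benjamini-Hochberg method. The thresholds of the 4 criteria for a call follow the study's methods, which Z-score-normalized log10 values and used another p and false detection rate. The mean signal criterion was not applied here, since the corrected values all lay over 0. The scripts were tested on simulated data. All comparisons draw on the same 24 arrays and so are not independent of each other.

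The members and gene lists were chosen with earlier results of these data known. Named genes were the members, Pbrm1, the 3 genes most like each member by Pearson's r, Il10, and, of each list in the contrasts described, all called genes where a contrast had at most 6, otherwise up to 4 with the largest difference in each direction. Listed genes with several kept probes were read from the brightest, and their other probes were not examined. Comparison genes with no probe or row here, among them Il2 and Kit, were not analysed here. The paper's methods describe 3 pairs of WT and BAF180-deficient RNAs, without saying which arrays form a pair. Deviations of WT and BAF180-deficient arrays of the same letter from their group means correlated at 0.302 (A), 0.136 (B) and 0.517 (C) over the 4 states, and the letters were taken to pair the arrays. The main tests did not use the pairing. The model was also fitted with the letter as a block, as 1 effect per letter over all 4 states and not as pairs within a state. Other alternatives were the background correction, the normalization, the detection filter, the variance model, the call rule, the arrays in the fit and leaving out each array. An exact permutation test of 3 against 3 arrays cannot give a p below 0.1, so single genes were tested in the model only. The number of arrays limits the precision. Promoter sequences were read from RefSeq (GRCm38.p6), in which all 5 members were matched by symbol. Figures were drawn with matplotlib 3.10.9 in Python 3.11.15.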

Additional observations from a re-analysis of the deposited data

How the results depend on the processing

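Over 54 values for the 5 genes, 537 of 559 values under other settings kept their direction and side of the call, 17 lost the call and 5 changed sign, and leaving out single arrays kept 308 of 330. All 5 genes stayed called in stimulated against resting Th2 cells and in stimulated Th2 against stimulated naive cells under every setting run. The exception among the counts was stimulation of naive cells. In WT naive cells 2 of 5 genes were called without background correction, with an offset of 50, with Z-score normalization or with probes detected on all 3 arrays of a group, and in BAF180-deficient naive cells 3 of 5 with an offset of 50. The count ran from 2 to 5 in WT naive cells and from 4 to 5 in deficient naive cells over single arrays left out. The lost calls fell short of the Z-ratio criterion, which scales with the SD of all differences, and their adjusted p was at most 0.00589.

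Sign changes concerned differences near 0 that were not called. With Z-score normalization Csf2 in deficient resting Th2 against naive cells became -0.018, and Il13 between genotypes in resting Th2 cells -0.015. Median scaling turned Il5 between genotypes in stimulated Th2 cells to -0.20, and gave 1.17 for Il4 in resting Th2 cells, where the value reported is 0.62. Leaving out both resting Th2 arrays of letter C, chosen after the data were seen, gave -0.079 for Il13 and -0.028 for Il5, while Il4 stayed at 0.49 and Csf2 at -0.11. With single arrays left out, genotype differences in stimulated naive cells ran from -0.44 to 0.78 for Il4, -0.27 to 0.95 for Il3, -0.21 to 0.39 for Il13 and -0.43 to 0.027 for Csf2. In resting Th2 cells they ran from -0.13 to 0.20 for Il13, -0.039 to 0.28 for Il5 and -0.22 to 0.0029 for Csf2, and in stimulated Th2 cells from -0.35 to 0.10 for Il13 and -0.091 to 0.30 for Il5. The difference of Il13 between resting WT Th2 and naive cells ran from -0.012 to 0.35. The cause of these changes was not tested.

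The replicate block, with 1 effect per letter over all states, changed no call among the members (54 of 54 kept), as for Il4 in resting Th2 cells, where the difference stayed 0.62 with an SE of 0.35 in place of 0.48. Over all probes the genotype calls were 119, 22, 17 and 20 with the block, against 93, 11, 12 and 13 without it, and 1, 0, 1 and 0 where the fit held the compared arrays alone (resting naive, stimulated naive, resting Th2, stimulated Th2). Each gene had 1 probe, so no second probe could be tried. The SEs pool all groups, which for Il4 in stimulated Th2 cells gave 0.48 in place of 0.09 from the arrays compared, and undetected levels give bounds only.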
